A study of Mus musculus with 40 samples.

Results

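Blood of uninduced mice labelled Ifnar1-/- was set against blood of uninduced Ifnar1+/+ mice, 3 mice of each genotype. These 6 libraries were chosen by their genotype and treatment labels out of 40 in the study. The mice were described as females of 7 weeks, and RNA was taken from whole peripheral blood before any pristane was given. The other 34 libraries came from mice that received PBS or spermine for 3 days and then pristane, an oil that induces a lupus-like disease, with blood taken on day 4 or day 6. Of these, 5 labelled Ifnar1-/- and 6 Ifnar1+/+ mice given PBS were sampled on each day. The labels give no strain, no colony or litter and no position of the Ifnar1 deletion, and do not say whether the uninduced mice received PBS.

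Ifnar1 encodes a chain of the receptor for type I interferons, the cytokines that cells release on sensing foreign or misplaced nucleic acid. Binding activates the kinases JAK1 and TYK2, whose signal switches on interferon-stimulated genes. Many of these genes encode proteins that block viral replication, and a low level of them is present in healthy animals. In human lupus, blood cells often carry a raised interferon signature.

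The 6 libraries held 9156431 to 10754901 fragments assigned to genes, of which 3577936 to 5543946 came from genes other than hemoglobin. In them 1 fragment on a gene of 2 kb was worth 0.0371 to 0.0714 FPKM (fragments per kilobase of gene, scaled to library size), the unit in which the values were deposited. Markers of red cells (Hba-a1, Hbb-bs), leukocytes (Ptprc), T cells (Cd3e), B cells (Cd79a), neutrophils (S100a8) and platelets (Pf4) were above 0 in all 40 libraries. Ifnar1+/+ mice 2 and 3 stood apart. In Ifnar1+/+ mouse 2, Xist, the RNA of the inactive X chromosome, was at 0, and the Y-linked genes Ddx3y, Eif2s3y, Kdm5d and Uty were at 10.6, 7.45, 1.498 and 1.47 FPKM, whereas in the 39 other libraries Xist was above 0 and these 4 genes were at 0. That library goes against the female label. In Ifnar1+/+ mouse 3, cytosolic ribosomal protein genes took 2.60% of the fragments outside hemoglobin, below the 4.76%, 4.72% and 4.83% of the labelled Ifnar1-/- mice and the 4.26% and 4.02% of Ifnar1+/+ mice 1 and 2. Mitochondrially encoded genes took 1.07% in that mouse and 1.55% to 1.83% in the other 5. Calls are therefore also given without each of these mice, and the part of sex or library quality in any difference was not tested. The hemoglobin share was 56.2 ± 5.23% in labelled Ifnar1-/- blood and 51.7 ± 7.34% in Ifnar1+/+ blood (SD, n = 3 each; exact two-sided permutation p = 0.4, where 0.1 is the smallest p that 3 against 3 mice allow). The ribosomal protein share was 4.77 ± 0.058% against 3.63 ± 0.897%, with all 3 labelled Ifnar1-/- mice above all 3 Ifnar1+/+ mice. The same permutation test gave p = 0.1 for it, or 0.5 after adjustment over 5 measures.

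The targeted gene itself was not lower. Ifnar1 (chromosome 16, 91485238 to 91507441, GRCm38) had 13.7, 17.4 and 18.1 FPKM in the mice labelled Ifnar1-/-, against 10.3, 8.90 and 8.19 FPKM in Ifnar1+/+ mice. The groups did not overlap, and the difference of 0.78 ± 0.14 on the log2(FPKM + 1) scale (± SE throughout) passed the test (limma adjusted p = 0.0023). The same held over all 40 libraries, in which the 13 labelled Ifnar1-/- libraries ran from 13.7 to 23.9 FPKM and the 27 Ifnar1+/+ libraries from 5.85 to 10.3 FPKM. A value summed over the whole gene does not show whether a deleted exon was missing, so the genotype rests on the labels. Ifnar2, the partner chain of the receptor, had 6.30, 6.75 and 7.39 FPKM in labelled Ifnar1-/- mice, against 4.41, 6.69 and 6.38 FPKM in Ifnar1+/+ mice, and did not pass the test (0.21 ± 0.19, limma adjusted p = 0.70). Jak1 and Tyk2 likewise did not pass, with differences of -0.10 and -0.04. Irf9 differed by -0.55 ± 0.22 and Stat2 by -0.41 ± 0.26 without passing, although all 3 labelled Ifnar1-/- mice were below all 3 Ifnar1+/+ mice for both genes. Of 13 tested genes of the receptor and its signalling, 4 lay above and 3 below without overlap, with a median of 0.13. Among all genes tested, 10.1% lay above and 7.52% below without overlap.

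Across 11829 genes tested, 48 were called between the genotypes at a limma adjusted p under 0.05, which is 0.406% of them. Of these, 21 were lower in labelled Ifnar1-/- blood (0.178% of genes tested) and 27 were higher (0.228%). The fit shared 1 estimate of spread over all 8 groups of the study. In a fit of the 6 uninduced mice alone no gene passed, with 1194 genes at an unadjusted p under 0.05. All 48 genes kept their direction in every alternative tried. The groups did not overlap for the 27 higher and for 20 of the 21 lower genes, so leaving out mice could not change their direction. The fit of the 6 mice alone has the same group means as the main fit, so it could not either. Without Ifnar1+/+ mouse 2, 17 of the 21 lower and 20 of the 27 higher genes were still called, and without Ifnar1+/+ mouse 3, 12 and 13 were. Leaving out each of the 6 mice in turn left 9 lower and 9 higher genes called every time. Of the 48, 25, 31 and 28 were called without labelled Ifnar1-/- mouse 1, 2 and 3, and 36 without Ifnar1+/+ mouse 1. Scaling to a fixed total left 26 of the 48 called when hemoglobin was left out of the total and 17 when it was included. Those 17 were 8 higher and 9 lower genes. Irf7, Isg15, Ifit1, Oas1a, Slfn5, Gm6545, Igha, Jchain and S1pr5 were each called in 15 of 17 alternatives, the exceptions being the fit of the 6 mice alone and that without Ifnar1+/+ mice 2 and 3. Ifnar1, Nxpe3 and Kmo were also not called under either fixed total, Klrg1 not with a pseudocount of 0.1 and Usp18 not with voom, which weighs the recovered reads.

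Interferon-stimulated genes made up most of the lower calls. Of the 21 genes, 13 stood on lists of interferon signalling, antiviral effectors, nucleic acid sensors, feedback inhibitors or the Ifi200 family. These lists held 13, 71, 9, 6 and 10 of the 11829 genes tested. The largest differences were in Irf7 and Isg15. Irf7, the transcription factor that amplifies interferon production, had 3.40, 2.68 and 2.26 FPKM in labelled Ifnar1-/- mice, against 32.5, 73.4 and 99.8 FPKM in Ifnar1+/+ mice. The highest labelled Ifnar1-/- mouse was far below the lowest Ifnar1+/+ mouse, and the log2 difference was -4.07 ± 0.54 (limma adjusted p = 5.1e-05). Isg15, a ubiquitin-like protein joined to other proteins during antiviral responses, had 14.0, 17.6 and 17.6 FPKM in labelled Ifnar1-/- mice, against 155, 597 and 261 FPKM in Ifnar1+/+ mice. Ifnar1+/+ mouse 2 was the highest for Isg15 and mouse 3 for Irf7, and the Ifnar1+/+ mice were further apart than the labelled Ifnar1-/- mice. Isg15 differed by -4.07 ± 0.58 (limma adjusted p = 0.00014), and by -3.55 without Ifnar1+/+ mouse 2 and -4.14 without Ifnar1+/+ mouse 3.

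Genes that act on viral RNA fell with them. Ifit1, whose product binds foreign RNA caps, had 0.905, 0.567 and 0.622 FPKM in labelled Ifnar1-/- mice, against 9.31, 20.6 and 23.9 FPKM in Ifnar1+/+ mice, a difference of -3.39 ± 0.61 (limma adjusted p = 0.0023). Oas1a, an oligoadenylate synthetase that primes RNA degradation, was listed at 0 in all 3 labelled Ifnar1-/- mice, against 4.37, 5.00 and 1.801 FPKM in Ifnar1+/+ mice, which correspond to 0 fragments against 204 (limma adjusted p = 0.0024). Oas3 and Oasl1, of the same family, differed by -2.68 and -1.71. The Oas3 call was lost without either of the 2 mice that stood apart, at adjusted p = 0.067 without Ifnar1+/+ mouse 2 and 0.13 without mouse 3. It held in 1 of the 6 fits that each left out 1 mouse, that without Ifnar1+/+ mouse 1. Dhx58, a helicase that tunes RNA sensing, differed by -1.05 ± 0.22, with 0.531, 0.920 and 0.842 FPKM in labelled Ifnar1-/- mice, against 2.79, 2.66 and 2.46 FPKM in Ifnar1+/+ mice. Its call was lost without Ifnar1+/+ mouse 3 (limma adjusted p = 0.056). The Dhx58 call held in 2 of those 6 fits, without labelled Ifnar1-/- mouse 2 and without Ifnar1+/+ mouse 2.

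The remaining 6 interferon-list genes that fell were Usp18, Slfn5, Slfn8, Ifi213, Ifi206 and Ifi27l2a. Usp18, which removes ISG15 from proteins and dampens receptor signalling, had 0.335, 0.396 and 0.329 FPKM in labelled Ifnar1-/- mice, against 3.75, 5.73 and 2.57 FPKM in Ifnar1+/+ mice (-1.84 ± 0.33, limma adjusted p = 0.0023). The Schlafen genes Slfn5 and Slfn8 differed by -1.99 ± 0.37 and -1.42 ± 0.32, and the Ifi200 genes Ifi213 and Ifi206 by -1.46 ± 0.27 and -1.28 ± 0.26. Slfn8 and Ifi206 did not pass without Ifnar1+/+ mouse 3, at adjusted p = 0.31 and 0.13. When each of the 6 mice was left out in turn, they passed in 1 and 4 fits. Ifi27l2a, a small interferon-induced protein, had 2.88, 2.60 and 2.38 FPKM in labelled Ifnar1-/- mice, against 43.4, 52.4 and 11.95 FPKM in Ifnar1+/+ mice. Its difference of -3.12 ± 0.70 passed (limma adjusted p = 0.025) but did not pass without Ifnar1+/+ mouse 2 (0.12). It passed in 1 of the 6 fits that each left out 1 mouse, that without Ifnar1+/+ mouse 3. The Oas, Slfn and Ifi200 families hold close copies, and no source used here gives how shared reads were treated, so values of single members are uncertain to that extent.

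**Figure D1:**
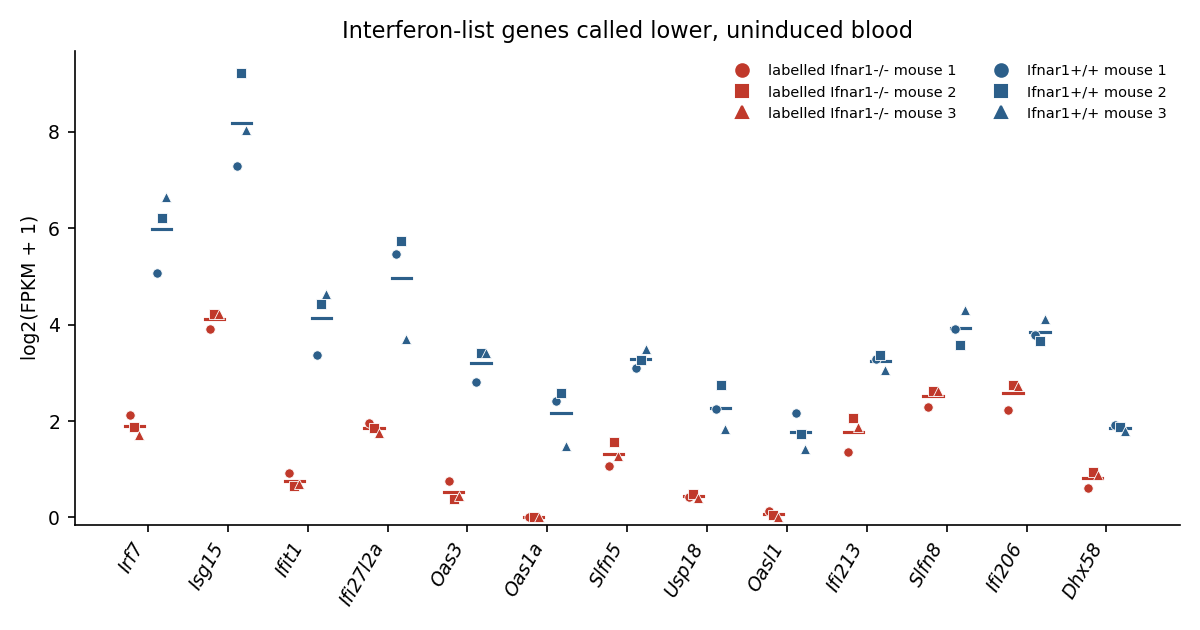
Level of the 13 interferon-list genes called lower, as log2(FPKM + 1) on the y axis, in each uninduced mouse. Red symbols to the left of each gene are labelled Ifnar1-/- mice, blue symbols to the right are Ifnar1+/+ mice, and horizontal bars are group means. The groups do not overlap for any of the 13 genes, and Oas1a lies at 0 in every labelled Ifnar1-/- mouse.

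Promoter sequences are shown for 4 of the lower genes, because they contain the core of the interferon-stimulated response element through which these genes respond to type I interferon. RefSeq promoters on GRCm38.p6, from 250 bases before to 50 after the gene start, were searched on both strands for GAAA, any 2 bases and GAAA again. They are written 5′ to 3′ on the strand of the gene, with matches in capitals and overlapping matches run together. They are Isg15 at chr4:156200769-156201068 on the minus strand, Ifit1 at chr19:34640639-34640938 on the plus strand, Oas1a at chr5:120907476-120907775 on the minus strand and Ifi213 at chr1:173599223-173599522 on the minus strand.
Isg15: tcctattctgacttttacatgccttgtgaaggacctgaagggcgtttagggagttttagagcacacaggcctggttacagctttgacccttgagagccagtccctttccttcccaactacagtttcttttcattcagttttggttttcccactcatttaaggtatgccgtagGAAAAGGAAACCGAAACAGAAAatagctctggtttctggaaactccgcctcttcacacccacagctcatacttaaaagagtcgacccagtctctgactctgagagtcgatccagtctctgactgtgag
Ifit1: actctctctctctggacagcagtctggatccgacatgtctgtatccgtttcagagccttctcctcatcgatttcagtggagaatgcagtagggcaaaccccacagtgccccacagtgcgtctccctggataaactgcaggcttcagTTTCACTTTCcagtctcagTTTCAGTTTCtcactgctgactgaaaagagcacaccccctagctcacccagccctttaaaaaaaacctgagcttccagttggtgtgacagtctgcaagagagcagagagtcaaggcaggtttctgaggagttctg
Oas1a: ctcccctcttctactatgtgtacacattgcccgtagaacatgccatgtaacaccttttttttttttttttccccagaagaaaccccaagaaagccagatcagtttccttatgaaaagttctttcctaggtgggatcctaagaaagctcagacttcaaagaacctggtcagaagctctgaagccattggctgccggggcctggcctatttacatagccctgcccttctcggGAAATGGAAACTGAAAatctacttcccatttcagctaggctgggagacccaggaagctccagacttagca
Ifi213: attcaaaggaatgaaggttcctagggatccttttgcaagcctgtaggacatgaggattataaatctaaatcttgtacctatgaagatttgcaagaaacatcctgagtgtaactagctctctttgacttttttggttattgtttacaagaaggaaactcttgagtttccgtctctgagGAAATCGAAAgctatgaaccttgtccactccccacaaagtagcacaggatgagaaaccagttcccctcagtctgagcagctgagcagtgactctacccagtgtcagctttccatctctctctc

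The Isg15 promoter holds 3 overlapping matches between positions -78 and -57 from the start, and that of Oas1a 2 overlapping matches between positions -20 and -5. The 2 Ifit1 matches read TTTCACTTTC and TTTCAGTTTC, the reverse complement of the searched letters. Of the 21 lower genes, 14 had a promoter entry and 8 of these held a match (57.1%). Of the 27 higher genes, 17 had an entry and 0 held a match. Among all genes tested, 332 of 7849 promoters held one (4.23%), and among all promoters 1079 of 27025 (3.99%). Of the antiviral list, 23 of 57 promoters held a match (40.4%), with 14 of 30 among members whose 3 labelled Ifnar1-/- values were all below the Ifnar1+/+ values and 9 of 27 among the others. Irf7, Kmo and Oasl1 had no match in this window. A match describes these letters in the reference and not a bound site.

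Beyond the called genes, most antiviral genes lay lower in labelled Ifnar1-/- blood without passing singly. Of 71 tested members of the antiviral list, 8 fell, 0 rose and 63 did not pass, beside 0.178% that fell and 0.228% that rose among all genes tested. In 40 of them all 3 labelled Ifnar1-/- mice were below all 3 Ifnar1+/+ mice and in 3 all were above, against 7.52% and 10.1% of all genes tested. The median log2 difference of the list was -0.42, beside 0.01 over all genes. Rsad2, the antiviral enzyme viperin, had 64.6, 58.2 and 72.5 FPKM in labelled Ifnar1-/- mice, against 214, 492 and 709 FPKM in Ifnar1+/+ mice, and lay just outside the threshold (-2.68 ± 0.66, limma adjusted p = 0.054). Oasl2, Rtp4, Ifit3, Cmpk2, Xaf1 and Mx1 differed by -2.28, -2.24, -1.62, -1.29, -1.14 and -0.89, with limma adjusted p from 0.11 to 0.44. For all 6 of these genes the groups did not overlap. Bst2 and Zbp1 overlapped between the groups and differed by -0.35 and -0.27.

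The interferon-linked lists did not all lie on one side. All 10 tested Ifi200 genes had negative differences, with 2 called, a median of -0.61 and no overlap between groups in 7. For comparison, 7.52% of all genes lay below and 10.1% above without overlap, and 0.406% were called. Among 9 sensors of cytosolic nucleic acid 1 was called and the median was -0.60, and among 12 interferon-linked Trim genes 0 were called and the median was -0.30. Of 6 tested feedback inhibitors 1 was called, Usp18, with 2 above and 1 below without overlap and a median of 0.02. Trim25, a ligase that activates the sensor RIG-I, differed by -0.64 ± 0.16, and Trim30a by -0.97 ± 0.24 (limma adjusted p = 0.051 for both). Guanylate-binding proteins and immunity-related GTPases, which interferon gamma also induces, had a median of 0.27, with 0 of 15 called and 5 members without overlap above against 1 below. MHC class I presentation had a median of 0.34, with 0 of 21 called and 12 members without overlap above against 1 below. H2-K1, a classical class I heavy chain, had 381, 369 and 361 FPKM in labelled Ifnar1-/- mice, against 263, 262 and 183 FPKM in Ifnar1+/+ mice (0.67 ± 0.29, limma adjusted p = 0.49). H2-T24, a non-classical one, lay on the other side with 13.7, 12.97 and 10.9 FPKM in labelled Ifnar1-/- mice, against 23.8, 21.7 and 27.7 FPKM in Ifnar1+/+ mice (-0.91 ± 0.36, limma adjusted p = 0.43). Irf1, a factor induced by both types of interferon, had 19.5, 20.8 and 20.2 FPKM in labelled Ifnar1-/- mice, against 10.5, 11.1 and 8.35 FPKM in Ifnar1+/+ mice, and did not pass (0.96 ± 0.38, limma adjusted p = 0.44).

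**Figure D2:**
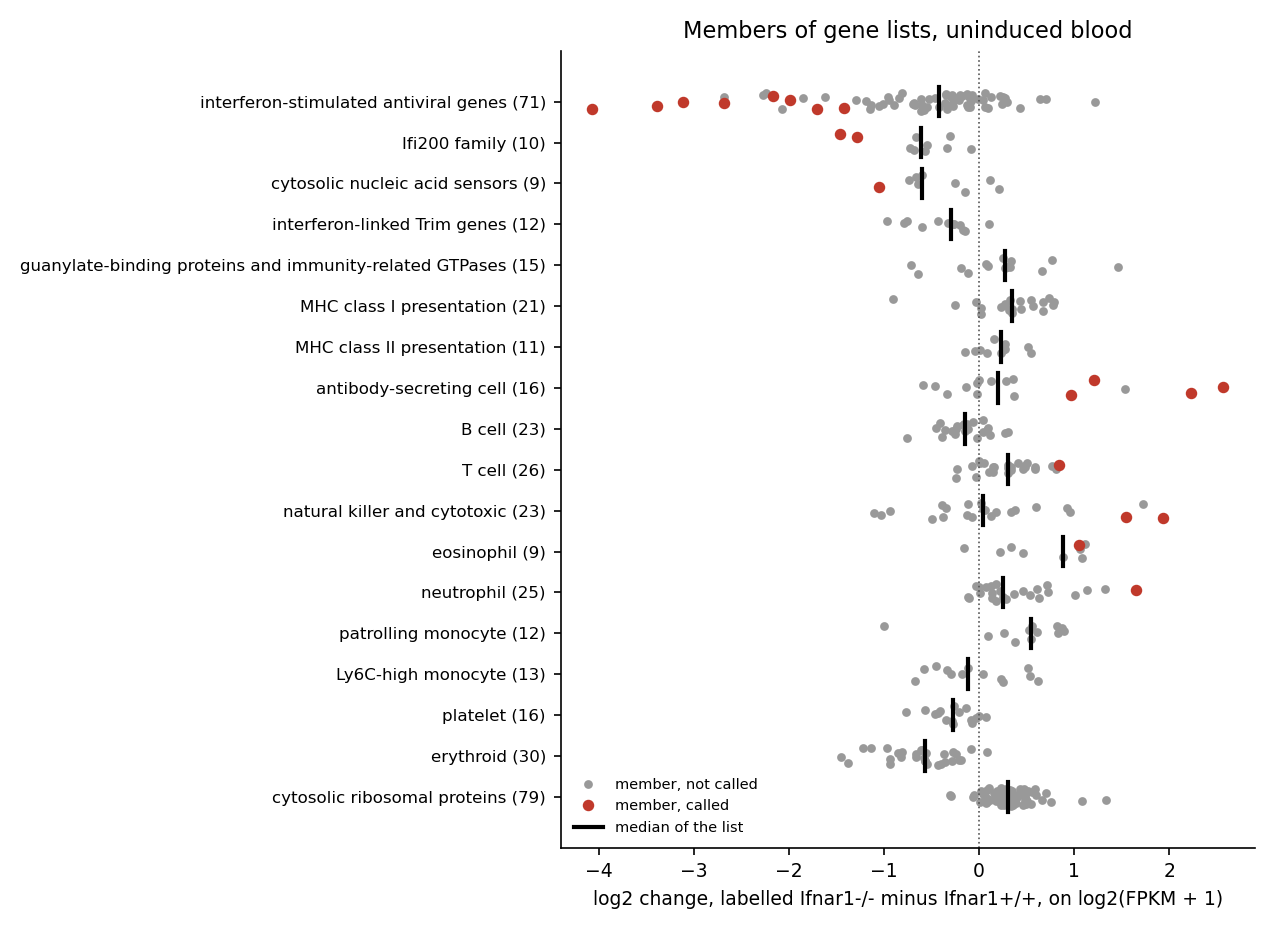
Log2 difference between labelled Ifnar1-/- and Ifnar1+/+ uninduced blood for each tested member of 18 gene lists, with the number of members in parentheses. Red points are called genes, grey points genes not called and black bars list medians. The antiviral, Ifi200 and sensor lists have medians from -0.61 to -0.42, and the erythroid list, with 0 genes called, has a median of -0.57.

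The other 8 lower calls stood on no interferon list. Kmo, an enzyme of tryptophan breakdown, had 4.61, 5.63 and 4.86 FPKM in labelled Ifnar1-/- mice, against 8.59, 8.01 and 9.10 FPKM in Ifnar1+/+ mice (-0.67 ± 0.12, limma adjusted p = 0.0023), and was called without each mouse in turn. Gm6545, a processed pseudogene named here after its values were seen, differed by -1.95 ± 0.33. Mir6907, Gm22888 and Ighd6-2 rest on few fragments, with 0, 1 and 0 in all labelled Ifnar1-/- mice together, against 4, 15 and 3 in all Ifnar1+/+ mice. Mir6907 was above 0 in 1 of the 37 libraries outside uninduced Ifnar1+/+ blood, so its spread was close to 0 and its small limma adjusted p of 1.1e-05 rests on those 4 fragments. Klra6, Serinc5 and C920009B18Rik differed by -0.94, -0.66 and -0.64 and did not pass without Ifnar1+/+ mouse 3, nor Klra6 without mouse 2. They were called in 1, 1 and 2 of the 6 fits that each left out 1 mouse. Ighd6-2 was the only lower call whose groups overlapped.

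Igha and Jchain showed the largest differences among the 27 higher calls. Igha, the constant region of immunoglobulin A, had 27.4, 36.7 and 35.1 FPKM in labelled Ifnar1-/- mice, against 5.67, 7.07 and 2.45 FPKM in Ifnar1+/+ mice. Every labelled Ifnar1-/- mouse was well above every Ifnar1+/+ mouse, and Igha rose by 2.57 ± 0.45 (limma adjusted p = 0.0023), or by 2.20 without Ifnar1+/+ mouse 3. Jchain, which links immunoglobulin A and M into polymers, had 8.49, 6.30 and 6.61 FPKM in labelled Ifnar1-/- mice, against 1.03, 0.738 and 0.450 FPKM in Ifnar1+/+ mice. It rose by 2.23 ± 0.38 (limma adjusted p = 0.0016), and the call held without each of the 6 mice in turn.

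The immunoglobulin G constant regions Ighg1 and Ighg2b also rose, by 1.21 ± 0.22 and 0.96 ± 0.23. Ighg1 had 2.73, 1.78 and 1.38 FPKM in labelled Ifnar1-/- mice, against 0.229, 0.0551 and 0.534 FPKM in Ifnar1+/+ mice. Ighg2b was not called without Ifnar1+/+ mouse 2 or 3, at adjusted p = 0.080 and 0.14. It was called in 1 of the 6 fits that each left out 1 mouse. The immunoglobulin constant genes resemble each other, so reads may have been split among them. Ighg2c had 7.86, 0.832 and 1.39 FPKM in labelled Ifnar1-/- mice, against 0.112, 0.108 and 0.285 FPKM in Ifnar1+/+ mice, and did not pass (limma adjusted p = 0.097). Of 16 tested genes of the antibody-secreting cell list, 4 rose, 0 fell and 12 did not pass, with a median of 0.20. Over all genes tested, 0.228% rose and 0.178% fell. Transcription factors and secretory genes on it did not pass: Xbp1 differed by 0.12, Mzb1 by -0.02, Irf4 by -0.33 and Sdc1 by -0.59. The summed level of the list was 639 to 790 FPKM in labelled Ifnar1-/- mice and 546 to 1328 FPKM in Ifnar1+/+ mice. Tent5c, a poly(A) polymerase that red cell precursors also express, alone had 313 to 1186 FPKM in Ifnar1+/+ mice. B cell genes did not rise, with 0 of 23 called and 4 members below without overlap, beside 7.52% of all genes. The median of that list was -0.15, or 0.02 when values were scaled to a fixed total without hemoglobin. Ighm, the constant region of immunoglobulin M, differed by -0.16 ± 0.19. In whole blood, more cells of a type and more RNA per cell cannot be told apart.

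The natural killer and cytotoxic list held 2 of the higher calls, Klrg1 and S1pr5. Klrg1, an inhibitory receptor of differentiated cytotoxic cells, had 13.03, 7.10 and 6.24 FPKM in labelled Ifnar1-/- mice, against 2.26, 1.21 and 1.07 FPKM in Ifnar1+/+ mice. S1pr5, a receptor that lets such cells leave tissues, had 10.2, 7.79 and 8.85 FPKM in labelled Ifnar1-/- mice, against 2.49, 3.77 and 1.36 FPKM in Ifnar1+/+ mice. Labelled Ifnar1-/- mouse 1 was the highest for both genes, and the groups did not overlap for either. Klrg1 rose by 1.93 ± 0.33 (limma adjusted p = 0.0016) and S1pr5 by 1.54 ± 0.24 (limma adjusted p = 0.00043), and both calls held without each mouse in turn.

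Cd8a was the 1 call of the T cell list, and 6 further higher calls that stood on neither list are given beside it, grouped after their values were seen. Klra6, a killer cell lectin-like receptor gene also on neither list, went the other way and was called lower (-0.94). Cd8a, a chain of the CD8 co-receptor, had 21.2, 24.1 and 22.6 FPKM in labelled Ifnar1-/- mice, against 13.5, 12.3 and 10.9 FPKM in Ifnar1+/+ mice (0.84 ± 0.18, limma adjusted p = 0.016). Cst7, an inhibitor of granzyme-activating cathepsins, rose by 1.36 ± 0.30, Adgrg5, an adhesion receptor, by 0.91 ± 0.21 and Ptpn22, a phosphatase that restrains T cell receptor signalling, by 0.59 ± 0.11. Zfp683, the factor Hobit of resident lymphocytes, rose by 1.02 ± 0.23, the granzyme Gzmk by 0.90 ± 0.21 and the T cell receptor segment Trgv2 by 1.34 ± 0.28. Ptpn22 was called without each mouse in turn. Cst7, Adgrg5 and Gzmk were not called without Ifnar1+/+ mouse 2 or 3, Cd8a and Zfp683 not without mouse 3, and Trgv2 not without mouse 2. When each of the 6 mice was left out in turn, Cst7, Adgrg5 and Gzmk were each called in 1 fit. Zfp683 was called in 2 of these fits, Cd8a in 3 and Trgv2 in 4.

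Most members of the 2 lists did not pass. Of 23 natural killer and cytotoxic genes 2 rose, 0 fell and 21 did not pass, with 6 above and 5 below without overlap and a median of 0.04. Among all genes 0.228% rose, and 10.1% lay above and 7.52% below without overlap. Ccl5, a chemokine of memory T and natural killer cells, had 127, 70.5 and 60.9 FPKM in labelled Ifnar1-/- mice, against 35.7, 18.6 and 20.8 FPKM in Ifnar1+/+ mice (1.72 ± 0.46, limma adjusted p = 0.11). Tbx21, the factor T-bet, differed by 0.95 ± 0.27 (limma adjusted p = 0.14). Ncr1, the receptor NKp46 of natural killer cells, lay on the other side with 2.77, 2.61 and 2.39 FPKM in labelled Ifnar1-/- mice, against 7.23, 4.82 and 8.49 FPKM in Ifnar1+/+ mice (-1.10 ± 0.34, limma adjusted p = 0.21). The summed level of this list was 205 to 379 FPKM in labelled Ifnar1-/- mice and 145 to 179 FPKM in Ifnar1+/+ mice. Of 26 T cell genes 1 rose, with 10 above and 1 below without overlap and a median of 0.30, or 0.16 without Ifnar1+/+ mouse 3. The summed T cell level was 627 to 644 FPKM in labelled Ifnar1-/- mice and 402 to 579 FPKM in Ifnar1+/+ mice, and its part in the calls above was not tested.

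**Figure D3:**
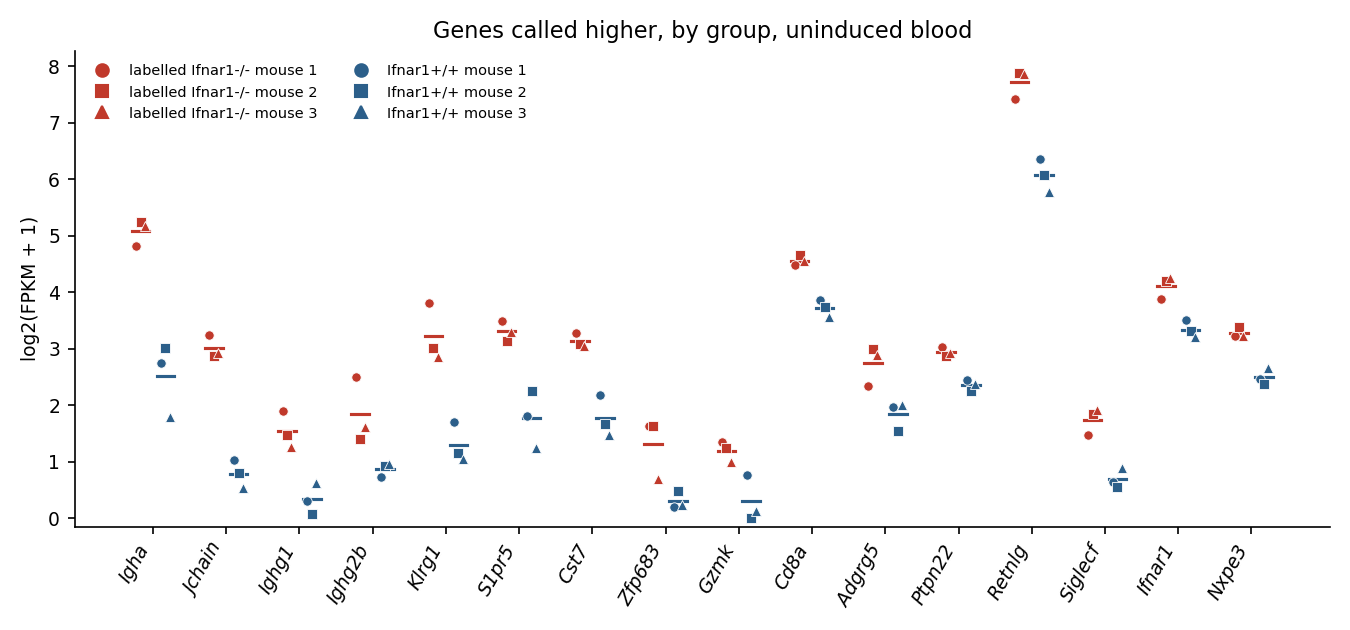
Level of 16 of the 27 genes called higher, as log2(FPKM + 1) on the y axis, in each uninduced mouse. Red symbols to the left of each gene are labelled Ifnar1-/- mice, blue symbols to the right are Ifnar1+/+ mice, and bars are group means; from left to right the genes are antibody genes, lymphocyte genes, Retnlg and Siglecf, and Ifnar1 and Nxpe3. Every gene shown is separated between the groups, and labelled Ifnar1-/- mouse 1 is the highest for Klrg1 and Ighg2b.

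Among genes of granulocytes, Retnlg, a resistin-like protein of neutrophils, had 171, 235 and 232 FPKM in labelled Ifnar1-/- mice, against 81.0, 66.2 and 54.1 FPKM in Ifnar1+/+ mice. It rose by 1.65 ± 0.37 (limma adjusted p = 0.025), and was not called without Ifnar1+/+ mouse 2 (0.065) or mouse 3 (0.23). Retnlg was called in 2 of the 6 fits that each left out 1 mouse. It was the 1 called gene among 25 of the neutrophil list, which had 8 members above and 0 below without overlap and a median of 0.25. Over all genes tested 0.228% were called higher, and 10.1% lay above and 7.52% below without overlap. The summed neutrophil level was 927 to 1009 FPKM in labelled Ifnar1-/- mice and 445 to 729 FPKM in Ifnar1+/+ mice. Siglecf, a lectin of eosinophils, had 1.77, 2.59 and 2.77 FPKM in labelled Ifnar1-/- mice, against 0.559, 0.461 and 0.856 FPKM in Ifnar1+/+ mice (1.05 ± 0.24, limma adjusted p = 0.027). It was the 1 called gene among 9 of the eosinophil list, whose median was 0.88, or 0.47 without Ifnar1+/+ mouse 3, and it did not pass without either of those mice (0.10 and 0.053). Siglecf was called in 1 of the 6 fits that each left out 1 mouse. Genes of patrolling monocytes had a median of 0.55 with 0 of 12 called. Of these, Treml4 differed by 0.87 ± 0.27, Ace by 0.83 ± 0.36 and the fractalkine receptor Cx3cr1 by 0.55 ± 0.28. Cd36, a scavenger receptor on the same list, lay furthest from 0, on the other side, at -0.998 ± 0.54. It had 11.3, 10.1 and 11.5 FPKM in labelled Ifnar1-/- mice, against 10.03, 37.4 and 31.3 FPKM in Ifnar1+/+ mice, and the groups overlapped.

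The erythroid list depended on the 2 mice that stood apart. Its median was -0.57 with 0 of 30 called, and 0.19 when Ifnar1+/+ mice 2 and 3 were both left out. The summed erythroid level was 18190 to 21000 FPKM in labelled Ifnar1-/- mice, against 14030, 26319 and 36224 FPKM in Ifnar1+/+ mice 1, 2 and 3. Ribosomal protein genes had a median of 0.30 with 0 of 79 called and 33 above without overlap, beside 10.1% of all genes. Their median was 0.19 without Ifnar1+/+ mouse 3. Platelet genes had a median of -0.27 with 0 of 16 called, genes of Ly6C-high monocytes -0.12 with 0 of 13, and MHC class II genes 0.23 with 0 of 11. Over all genes tested 0.406% were called, so 0 calls in lists of these sizes say little. Without Ifnar1+/+ mice 2 and 3 the medians of these 3 lists were 0.12, 0.10 and -0.0023. The platelet median ran from -0.61 without labelled Ifnar1-/- mouse 1 to -0.07 without labelled Ifnar1-/- mouse 2 or Ifnar1+/+ mouse 3 when each mouse was left out in turn, that of Ly6C-high monocytes 0.11 without Ifnar1+/+ mouse 2, and that of MHC class II 0.13 without Ifnar1+/+ mouse 3. The median of the antiviral list was -0.44 without mice 2 and 3, beside -0.42 with them.

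The remaining higher calls fell into no list of cell types. Bhlhe40, a repressor that is both clock-linked and induced in activated lymphocytes, rose by 1.15 ± 0.22, and Ddit4, an inhibitor of mTOR signalling, by 1.22 ± 0.28. Ddit4 had 21.5, 9.09 and 9.58 FPKM in labelled Ifnar1-/- mice, against 5.12, 5.94 and 3.51 FPKM in Ifnar1+/+ mice, so that labelled Ifnar1-/- mouse 1 stood above the others. Tspan17, a tetraspanin, had 18.9, 15.7 and 14.7 FPKM in labelled Ifnar1-/- mice, against 7.26, 6.98 and 6.68 FPKM in Ifnar1+/+ mice (1.12 ± 0.24, limma adjusted p = 0.014). Ddit4 and Tspan17 were not called without Ifnar1+/+ mouse 3. AC149090.1, a gene on an unplaced scaffold, rose by 1.05 ± 0.23. Baiap3, Kcnj8, Laptm4b, Pdxp, Gm19585 and Gm47782 completed the 27. Of these, AC149090.1, Laptm4b, Pdxp and Gm19585 were also not called without Ifnar1+/+ mouse 3, at limma adjusted p = 0.27, 0.23, 0.27 and 0.69. When each of the 6 mice was left out in turn, Pdxp was called in 1 fit and Tspan17 in 4. Ddit4, AC149090.1, Laptm4b and Gm19585 were each called in 3.

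Of the 48 calls, 3 lay on chromosome 16 (6.25%), beside 377 of the 11829 genes tested (3.19%), a difference that was not tested. Ifnar1, the gene by which the groups are labelled, is itself 1 of the 3 and raises that share. Nxpe3 (chromosome 16, 55839953 to 55895285) had 8.30, 9.38 and 8.38 FPKM in labelled Ifnar1-/- mice, against 4.49, 4.17 and 5.33 FPKM in Ifnar1+/+ mice, and rose by 0.78 ± 0.11 (limma adjusted p = 0.00014). Retnlg (48872621 to 48874496) was the third. Among 30 tested genes that flank Ifnar1, 0 were called (0.406% of all genes) and the median was 0.02. In 6 of them (20%) all 3 labelled Ifnar1-/- mice were above all 3 Ifnar1+/+ mice and in 7 (23.3%) below, beside 10.1% and 7.52% of all genes. With voom 1 of the 30 was called higher. Hunk, a kinase gene on chromosome 16, was not called in uninduced blood except with voom and with no filter. Over all 40 libraries it ran from 0.175 to 1.38 FPKM in the 13 labelled Ifnar1-/- libraries. In the 27 Ifnar1+/+ libraries it ran from 0 to 0.0425 FPKM, without overlap. Its differences of 0.98 on day 4 and 0.94 on day 6 passed (limma adjusted p = 2.1e-10 and 7.3e-10).

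The same contrast was available after pristane, in separate libraries, and the labels do not say whether any mouse gave more than 1 of them. The interferon-stimulated genes differed there too. Irf7 had 1.98, 2.29 and 10.9 FPKM (lowest, median, highest of 5) in labelled Ifnar1-/- mice on day 4, against 67.6, 129 and 272 FPKM in 6 Ifnar1+/+ mice, and the log2 difference was -4.98 ± 0.40 on day 4 and -5.16 ± 0.40 on day 6. Isg15 differed by -5.65 ± 0.43 on day 4 and by -3.84 ± 0.43 on day 6. The uninduced difference minus that on day 4 was 1.59 ± 0.73 for Isg15 and 0.91 ± 0.68 for Irf7, and neither passed (limma adjusted p = 0.46 and 0.72). Over all 40 libraries, Irf7 ran from 1.98 to 10.9 FPKM in the 13 labelled Ifnar1-/- libraries and from 14.0 to 413 FPKM in the 27 Ifnar1+/+ libraries, without overlap. Isg15 overlapped, at 4.25 to 95.2 FPKM in the labelled Ifnar1-/- and 33.0 to 1929 FPKM in the Ifnar1+/+ libraries. Ifit1, Oas3, Dhx58 and Slfn8 also overlapped over the 40 libraries. Oas1a, Oasl1, Usp18, Slfn5, Ifi213, Ifi206 and Ifi27l2a did not. Igha differed by 1.90 ± 0.34 on day 4 and 1.44 ± 0.34 on day 6, and Jchain by 1.17 ± 0.28 and 0.75 ± 0.28, of which the last did not pass (limma adjusted p = 0.16).

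Klrg1 and S1pr5 behaved otherwise. Klrg1 had 0.923, 1.32 and 2.41 FPKM (lowest, median, highest of 5) in labelled Ifnar1-/- mice on day 4, against 0, 0.621 and 1.79 FPKM in 6 Ifnar1+/+ mice. On day 6 it had 0.331, 0.913 and 3.46 FPKM in labelled Ifnar1-/- mice, against 0.521, 1.43 and 2.46 FPKM in Ifnar1+/+ mice. The groups overlapped on both days, unlike before pristane. The uninduced difference exceeded that on day 6 by 2.15 ± 0.41 for Klrg1 (limma adjusted p = 0.033) and by 1.67 ± 0.30 for S1pr5 (limma adjusted p = 0.014). Neither excess passed without labelled Ifnar1-/- mouse 1 (limma adjusted p = 0.21 for Klrg1 and 0.089 for S1pr5), without Ifnar1+/+ mouse 3 (0.15 for both), with a pseudocount of 0.1 (0.63 and 0.091) or in the fit of the compared groups (0.39 and 0.13). That of Klrg1 also did not pass without labelled Ifnar1-/- mouse 2 (0.062), without Ifnar1+/+ mouse 2 (0.11) or with voom (0.78), array weights (0.080), the replicate block (0.11) or without the libraries of low mitochondrial share (0.10), nor that of S1pr5 with a fixed total including hemoglobin (0.27). Against day 4 the excess was 1.31 ± 0.41 and 1.09 ± 0.30 and did not pass (limma adjusted p = 0.18 and 0.10). Mir6907 was the only other gene called against day 6, so 3 genes were called (0.0254% of those tested).

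Against day 4, 30 genes were called (0.254%), of which 28 had a lower difference in uninduced mice. These were mostly genes whose genotype difference was near 0 before pristane and positive on day 4. Cxcr2, a chemokine receptor of neutrophils, differed by 0.00 ± 0.24 in uninduced mice and by 1.33 ± 0.17 on day 4. Hk3, a hexokinase of myeloid cells, differed by 0.02 ± 0.22 in uninduced mice and by 1.38 ± 0.16 on day 4, and Ccr1, a receptor for inflammatory chemokines, by -0.10 ± 0.22 and 1.32 ± 0.16. This count was 2 without labelled Ifnar1-/- mouse 1, without labelled Ifnar1-/- mouse 3 or without Ifnar1+/+ mouse 1, and 0 with voom on the recovered reads.

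**Figure D4:**
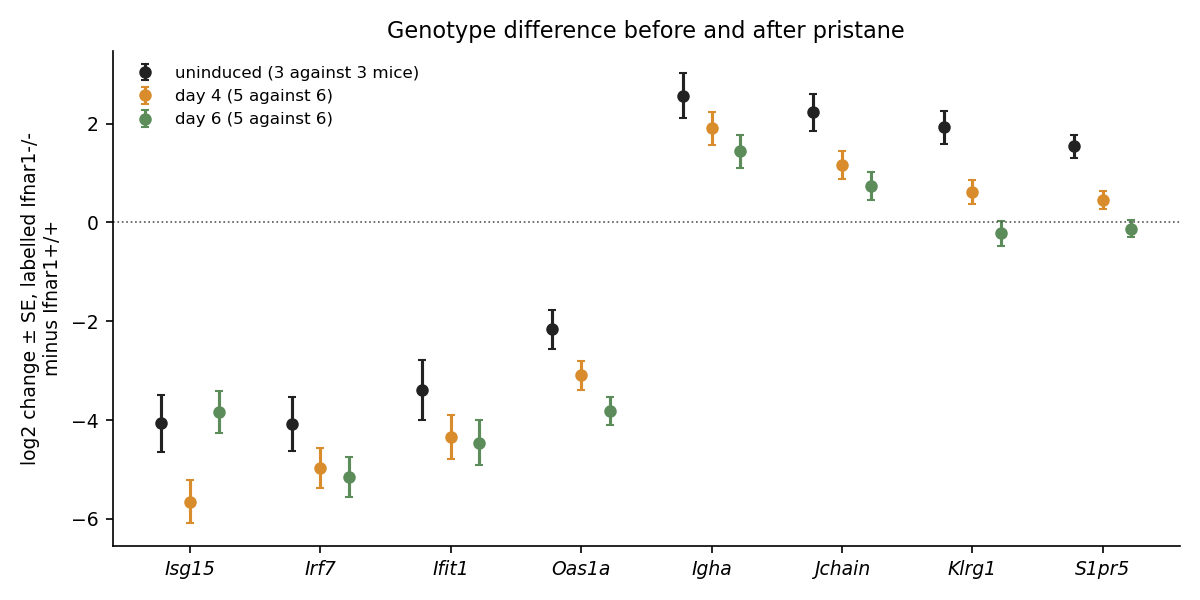
Log2 difference ± SE between labelled Ifnar1-/- and Ifnar1+/+ blood for 8 genes in uninduced mice (black) and in PBS-treated mice on day 4 (orange) and day 6 (green) after pristane. Isg15, Irf7, Ifit1 and Oas1a lie below 0 at each time, while Klrg1 and S1pr5 are highest in uninduced mice and near 0 on day 6, at -0.22 and -0.13.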

How the data were processed

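Poly(A)-selected RNA of whole blood was sequenced. The authors deposited 1 table of FPKM values for 54532 genes in 40 libraries, used as deposited. The submitters' processing notes name CASAVA 1.8, fastp, HISAT2 2.0.5, featureCounts 1.5.0-p3, DESeq2 1.20.0 and GRCm38, with the step each served not given in the sources used here. FPKM times gene length came out as whole multiples of 1 read for 100% of nonzero values (tolerance 0.001 read), which gave fragments per library. The totals that the FPKM imply, 7000980 to 13473881 in the 6 uninduced libraries, are not the fragment totals, so scaling was varied.

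Values were tested as log2(FPKM + 1), which understates changes of low genes, with limma 3.58.1 (trend) in R 4.3.3. All 40 libraries entered 1 fit of 8 groups, over the 11829 genes that reached 1 FPKM in 3 or more libraries, with Benjamini-Hochberg adjustment and calls under 0.05. The script was tested on simulated data. Nothing in the labels says that mice share a litter or batch, so p-values measure the spread between these samples. Promoters came from RefSeq, GRCm38.p6.

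Members and gene lists were chosen with earlier results of these data known. Genes were named if called with a mean of at least 5 FPKM in either group (up to 15 a direction, without predicted genes and receptor segments), if among the 3 smallest p of a list, on a short list of interferon genes, or among the 5 smallest p of each difference between contrasts. Other genes in the text were named after their values were seen. Alternatives were other scalings, a pseudocount of 0.1, no filter, array weights, voom on recovered reads, a fit of the compared groups, a replicate block and leaving out mice. Leaving out Ifnar1+/+ mice 2 and 3 together, and all libraries of low mitochondrial share, was chosen after seeing the data. Some results are not reported here.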

Additional observations from a re-analysis of the deposited data

Results flagged for a closer look

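The genotype difference (labelled Ifnar1-/- minus Ifnar1+/+, log2) in uninduced mice differed from that on day 4 or day 6 of pristane, by a limma test of the difference itself, for the following genes. Against day 4, the uninduced difference minus the day 4 difference was -1.60 for Mir6907, -1.07 for Sfxn5, -1.42 for Ccr1, 2.21 for 9530026F06Rik and -0.69 for Hunk. Sfxn5 and Ccr1 had uninduced differences of -0.24 and -0.10 and day 4 differences of 0.83 and 1.32. Hunk, a kinase gene on chromosome 16, was higher in labelled Ifnar1-/- blood by 0.98 on day 4 and 0.94 on day 6, and its uninduced difference of 0.29 did not pass. Its uninduced level was low, at 0.238, 0.287 and 0.175 FPKM in labelled Ifnar1-/- mice, against 0, 0 and 0.0299 FPKM in Ifnar1+/+ mice, and the uninduced difference passed with voom (4.45, limma adjusted p = 0.00063) and with no filter (0.032). Against day 6, the same quantity was -1.60 for Mir6907, 1.67 for S1pr5 and 2.15 for Klrg1, and those of S1pr5 and Klrg1 did not pass without labelled Ifnar1-/- mouse 1 or without Ifnar1+/+ mouse 3. Mir6907 rests on 4 fragments in uninduced Ifnar1+/+ blood.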

How the results depend on the processing

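All 48 called genes kept their direction in each of the 17 alternatives. Leaving out mice could not change it for genes whose groups did not overlap, nor could the fit of the groups compared. The count of 48 was 30 with a fixed total without hemoglobin, 22 with a fixed total including it (8 higher and 14 lower, against 27 and 21), 139 with no filter, 0 in the fit of the groups compared, 156 with array weights, 30 with voom and 27 to 55 leaving out 1 mouse. Without Ifnar1+/+ mice 2 and 3 it was 1, where the lone Ifnar1+/+ mouse is assumed to vary like the other groups. A fixed total without hemoglobin moved the median of all genes to 0.12.

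The count of 30 against day 4 was 561 with a fixed total including hemoglobin. With that total the median over all genes was -0.68, beside 0.02 in the main fit. The count was 15 with a pseudocount of 0.1, 14 in the fit of the groups compared, 257 with array weights and 0 with voom (1031 at an unadjusted p under 0.05). It was 2 to 19 leaving out 1 mouse. It was 4 without Ifnar1+/+ mice 2 and 3 and 9 once libraries with a low mitochondrial share were dropped. The count of 3 against day 6 was 0 with a pseudocount of 0.1 (593 at an unadjusted p under 0.05) and 0 in the fit of the groups compared (564), 10 with no filter, 6 with array weights, 1 with voom, 1 to 4 leaving out 1 mouse and 5 without libraries of low mitochondrial share. The antiviral median of -0.42 was -0.29 with a fixed total without hemoglobin, -0.56 with a pseudocount of 0.1, -0.57 with voom and -0.58 to -0.37 leaving out 1 mouse. The cause of these moves was not tested.

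No pairing by replicate number was seen: deviations from the group mean of same-numbered mice of the 2 genotypes correlated at -0.14, -0.09 and 0.00. A fit with the replicate number as a block called 53 genes, 1 against day 4 and 2 against day 6. Tests of the mean level of each marker list were not run. Few fragments limit genes under about 1 FPKM.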
